A study of Mus musculus with 3 samples.

Results

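The genes described here are 34 immediate early and stress response genes, read in single cells sorted from mouse cardiac ganglia. They were chosen by name, with earlier results of these data known. Most are genes that cells are known to switch on within minutes to hours of a stimulus, while some, such as Jund and Hspa8, are carried at rest. All 34 had a row in each of the 3 matrices (of 32285 features in the posterior and anterior matrices and 31064 in the mixed matrix). By role they comprise 7 genes of the AP-1 transcription factor family, 3 EGR, 2 NR4A and 3 KLF transcription factors, 11 feedback and signalling genes, 6 heat shock genes and 2 genes of neuronal activity. The study sorted GFP-positive cells from male and female mice of the genotype Baf53b-cre;lox-GFP, where Cre under the promoter of the neuronal chromatin subunit gene Actl6b (Baf53b) turns on GFP, and sequenced them with the 10x Genomics 3′ kit. There was 1 library from posterior ganglia (labelled 4 months of age), 1 from anterior ganglia (3 months) and 1 from mixed ganglia of the atria (2 months), and no untreated or treated arm: all mice carried the same alleles. The protocol names 10 mice, and every library was digested with 0.25% trypsin for 25 min and then with collagenase A and dispase II for 40 min at 37 °C before sorting. Region, library and labelled age cannot be told apart, and no source used here states whether the libraries share animals.

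Immediate early genes are transcribed from factors already present in the cell, so their mRNA can rise without new protein. In neurons they are induced by depolarisation, calcium entry and neurotrophins, and in glia, fibroblasts and macrophages by growth factors, cytokines and mechanical or enzymatic disturbance, including tissue dissociation. Their products are transcription factors (the FOS and JUN proteins that pair as AP-1, the EGR zinc fingers, NR4A nuclear receptors and KLF factors) and brakes on the same signals (the MAP kinase phosphatase DUSP1, the mRNA decay factor ZFP36, the cytokine brake SOCS3). Heat shock genes answer misfolded protein through the factor HSF1 and encode chaperones. No sample without dissociation was measured, so the level of these genes before digestion was not analysed here.

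Neurons were taken as barcodes with at least 10000 UMIs (unique molecular identifiers, 1 per captured mRNA) in which Snap25, Prph and Stmn2 were all detected. This gave 1443 posterior, 1314 anterior and 1971 mixed neurons with a median of 57249, 39858.5 and 57355 UMIs. Barcodes gated by markers gave 150, 163 and 86 glia, 148, 91 and 99 fibroblasts, 37, 26 and 100 mural cells (smooth muscle and pericytes) and 48, 15 and 25 macrophages, in the same order, with median depths between 2147 and 7205 UMIs. The 3 neuron markers summed to 92.0, 98.1 and 103 UMIs per 10000 in neurons and to 6.28, 5.04 and 2.02 in glia. The 12 glia markers summed to 166, 137 and 230 UMIs per 10000 in glia and to 2.21, 2.44 and 4.51 in neurons, where all 12 were detected. A stricter set of 1057, 948 and 1417 neurons, each with under 2 UMIs per 10000 of the markers of every other class, is used beside the full set below and is called marker-clean. Libraries shared 3, 3 and 2 barcodes in the 3 pairings, 1 of them between neurons.

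Levels are UMIs of a gene per 10000 UMIs summed over the cells of a class in a library, given for the posterior, anterior and mixed libraries in that order. Reads come from the 3′ end of each mRNA, so these levels do not scale with transcript length. Among the AP-1 genes in neurons, Jund, the member that most resting cells carry, was the highest, at 10.1, 11.1 and 8.68 UMIs per 10000. Fos, the partner of JUN proteins and the usual marker of recent neuronal activity, stood at 3.11, 2.05 and 0.522. The posterior level of Fos was thus the highest and the mixed level the lowest, with 95% counting intervals (3.07 to 3.15, 2.01 to 2.09 and 0.509 to 0.536) that did not overlap. Jun, which forms AP-1 with FOS proteins and answers axon damage in peripheral neurons, had 1.90, 1.25 and 0.937, and Junb had 1.24, 0.833 and 0.304. Atf3, a stress-induced member known for its rise in injured sensory and sympathetic neurons, had 0.590, 0.397 and 0.0898. Fosb had 0.554, 0.279 and 0.0609, and Fosl2 was the lowest of the 7 at 0.0327, 0.0249 and 0.0109. Posterior neurons were above mixed neurons for each of the 7, and for Jund anterior neurons were the highest.

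The EGR, NR4A and KLF factors ranged widely in neurons. Egr1, a zinc finger factor induced by ERK signalling, had 0.716, 0.434 and 0.132 UMIs per 10000, while Egr2, best known for driving Schwann cell myelination, had 0.0211, 0.0220 and 0.00258 and Egr3 had 0.0127, 0.00771 and 0.00181. The orphan nuclear receptors Nr4a1 and Nr4a2 had 0.114, 0.0941 and 0.0329, and 0.0461, 0.0249 and 0.0259. Klf6 was the KLF gene that neurons carried most, at 1.39, 1.09 and 1.05. Klf2, a factor of quiescent endothelial cells and leukocytes, had 0.174, 0.107 and 0.0234, and Klf4 had 0.124, 0.0490 and 0.0150. The spread between libraries was wide for Egr2 and Klf4 and narrow for Klf6.

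Of the feedback and signalling genes, the antiproliferative factor Btg2 was the highest in posterior neurons (0.945, 0.562 and 0.435 UMIs per 10000), followed by the stress sensor Gadd45g (0.787, 0.556 and 0.234) and by Dusp1, which switches off JNK, p38 and ERK (0.662, 0.363 and 0.347). Ier3, Zfp36 and Socs3 had 0.392, 0.421 and 0.292, then 0.388, 0.271 and 0.0595, and 0.341, 0.291 and 0.0351. Zfp36, whose protein shortens the life of AU-rich cytokine mRNAs, and Socs3, which blocks JAK kinases, were thus far lower in mixed neurons, while Ier3 was not. Ier2 had 0.288, 0.297 and 0.173, and Nfkbia, the inhibitor that holds NF-kB in the cytoplasm, had 0.240, 0.225 and 0.230. Ier5 had 0.105, 0.0835 and 0.0627, Gadd45b had 0.0954, 0.0571 and 0.0488, and Myc had 0.0699, 0.0765 and 0.0677. Nfkbia and Myc were the members with the most even levels of this group.

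Heat shock genes split into abundant and scarce ones. Hspa8, the constitutive HSC70 chaperone that also uncoats synaptic vesicles, had 21.2, 19.8 and 20.5 UMIs per 10000. Its last 500 bases share 81.8% of their stretches of 50 bases with 11 pseudogenes, so how its reads were assigned is uncertain. Hspb1, the small heat shock protein HSP27 of actin and neurofilament stability, had 4.53, 3.84 and 3.41 (16.0% of the stretches at its 3′ end are shared with 1 pseudogene), and Hsph1 (HSP110, a nucleotide exchange partner of HSP70) had 1.14, 0.890 and 0.717. Dnajb1, the HSP40 that hands clients to HSP70, had 0.468, 0.370 and 0.344. The strictly inducible HSP70 genes were scarcer and took another order: Hspa1a had 0.313, 0.101 and 0.364, and its neighbour Hspa1b had 0.0965, 0.0251 and 0.146. For this pair the mixed library was the highest and the anterior library the lowest. The 2 genes of synaptic activity, Arc and the calcium-induced factor Npas4, were barely detected, at 0.0289, 0.0197 and 0.0152 for Arc and at 0.0179, 0.0112 and 0.00947 for Npas4. Npas4 had 0 UMIs in glia, which at 3 UMIs allows up to 0.0459, 0.0675 and 0.0961 per 10000 there, so its level in neurons lies under what the glial depth can show. Arc was higher in glia: there the 2 genes summed to 0.521, 0.337 and 0.160, all from Arc, against 0.0468, 0.0308 and 0.0247 in neurons.

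**Figure D1:**
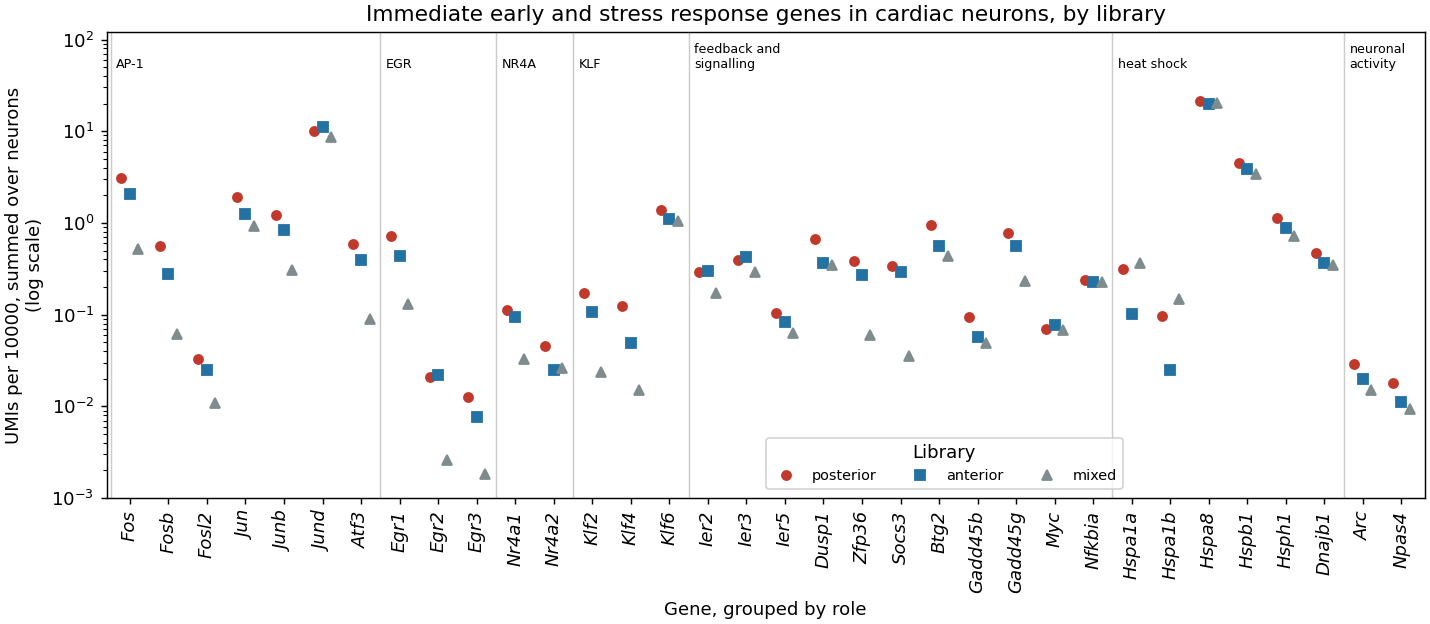
Level of each of the 34 genes in neurons (y axis, UMIs per 10000 summed over the neurons of a library, log scale), grouped by role along the x axis, with 1 point per library and no replicate. Hspa8 and Jund sit at the top in all 3 libraries, Fos runs between 3.11 (posterior) and 0.522 (mixed), and Hspa1a and Hspa1b are the genes whose mixed point is the highest.

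Of the 34 genes, 26 reached 0.1 UMIs per 10000 in the neurons of at least 1 library. The mixed library had the lowest level of 22 of these, against 57.0% of the 8345 genes at that level, and the posterior library had the highest level of 21, against 51.1% of all genes. In glia, the mixed library was the lowest for 29 of 33 genes at that level, against 35.9% of 9885 genes. In fibroblasts it was the lowest for 14 of 32, against 33.7%, and in macrophages for 7 of 32, against 33.2%. The mixed matrix was also written by an earlier Cell Ranger version with another annotation, and its neurons had more mitochondrial UMIs (a median of 4.03%, against 2.61% in posterior and 2.46% in anterior neurons). The part of these in the order was not tested.

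Neurons differed in Fos more than in the abundant members. The measure used was the variance over the mean of the UMIs per neuron (the Fano factor, 1 for counts that vary by sampling alone) after each neuron was thinned to 10000 UMIs. It was 19.7, 11.5 and 4.95 for Fos and 20.9, 7.08 and 4.28 for Atf3. It was 2.91, 2.52 and 2.02 for Hspa8, 2.90, 2.22 and 1.65 for Jund and 4.46, 3.58 and 3.08 for Hspb1, which also differed between the neuron classes described below. The scarce Myc lay close to sampling, at 1.25, 1.10 and 0.999. The factor moves with the level of a gene and is a description with no test. A Fos UMI was seen in 76.5%, 59.1% and 25.8% of neurons at that depth, which counts cells with a UMI and not cells that transcribe the gene. The summed level of the immediate early members without Jund had a median of 10.8, 6.37 and 4.09 UMIs per 10000 per neuron, a 95th percentile of 55.0, 38.2 and 16.1 and a highest value of 646, 409 and 104.

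The neurons at the top of that sum also carried RNA of other cells and were shallower. The 5% of neurons with the highest sum averaged 15.0, 31.3 and 18.4 glia marker UMIs per 10000, against 2.06, 1.59 and 4.62 in the rest. In the posterior library they also averaged 63.5 fibroblast marker UMIs per 10000. Their median depth was 19214, 31352.5 and 40139 UMIs, against 58699, 40422 and 58279.5 in the rest. In marker-clean neurons Fos stood at 2.23, 1.13 and 0.364 UMIs per 10000, Jun at 1.37, 0.746 and 0.826, Egr1 at 0.342, 0.128 and 0.0708 and Atf3 at 0.288, 0.0906 and 0.0542. Each of these was lower than in all neurons. Egr2 stood at 0.00176, 0.000252 and 0.000349, a small share of its level in all neurons, whereas Jund (9.91, 10.9 and 8.78) and Hspb1 (4.59, 4.00 and 3.47) were at nearly the same level in both sets.

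Across neurons the levels of the immediate early genes varied together. The correlations below are Spearman rho over the thinned neurons of a library (1443, 1314 and 1971), for genes with a UMI in at least 10% of them. They are descriptions with no test, since neurons of a library share its depth, its free RNA and its handling. Over all pairs of the 24, 20 and 18 members that passed, the median rho was 0.109, 0.103 and 0.053, against 0.00601, 0.00515 and 0.00173 over all gene pairs. Of the member pairs, 52.2%, 51.6% and 48.4% lay above the 95th percentile of all pairs. Fos and Egr1 were the most alike pair that passed in every library (0.464, 0.513 and 0.379), followed by Fos with Jun and Junb. Fos with Junb had 0.457, 0.446 and 0.320, Fos with Jun had 0.442, 0.411 and 0.339, and Jun with Egr1 had 0.361, 0.371 and 0.275. In marker-clean neurons the median over pairs of immediate early members was 0.057, 0.044 and 0.064, against 0.164, 0.166 and 0.088 in all neurons.

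Heat shock members had lower values. The median rho among heat shock members was 0.073, 0.006 and 0.022, and between heat shock and other members 0.014, 0.015 and 0.041. Single pairs of a heat shock and another member went both ways. Jund had -0.104, -0.149 and -0.027 with Hsph1 but 0.202, 0.140 and 0.048 with Hspb1. Egr1 had -0.142, -0.108 and -0.013 with Hspb1 but 0.073, 0.095 and 0.130 with Dnajb1. The sum of the inducible chaperone genes Hspa1a, Hspa1b, Dnajb1 and Hsph1 had a rho with the immediate early sum of 0.18, 0.237 and 0.406, the largest value being in the mixed library. The immediate early sum had a rho with UMIs per neuron of -0.357, -0.336 and -0.409 and with the glia markers of 0.204, 0.346 and 0.118, and the part of depth and glial RNA in these correlations was not tested.

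Genes outside the members (6941) were ranked by their lowest rho over the 3 libraries with a sum of members. The immediate early sum of this ranking included Jund, at 10.1, 11.1 and 8.68 of 24.5, 21.0 and 13.9 UMIs per 10000. The genes most like that sum were Gm26532, Eef1a1, H3f3b, Fau, Btg1, Crip1, Tpt1 and Npm1. Gm26532 had 0.214, 0.240 and 0.154, and the histone gene H3f3b had 0.375, 0.356 and 0.143. The heat shock sum was mostly Hspa8, at 21.2, 19.8 and 20.5 of 27.8, 25.0 and 25.4 UMIs per 10000. Among the genes most like the summed heat shock members were Tubb3, Tuba1a, Pkm, Tubb5, Gpi1, Tubb4b and Tubb2a. Tubb3, the neuronal beta tubulin, had 0.438, 0.495 and 0.270, and Pkm, the glycolytic pyruvate kinase, had 0.392, 0.393 and 0.233.

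In cells around the neurons the immediate early mRNAs made up a far larger share of the UMIs. Neurons had median depths of 57249, 39858.5 and 57355 UMIs, against 2147 to 7205 in the other classes. A larger share is thus not always more UMIs per cell, which were not compared. In every library each of the 4 non-neuronal classes had more Fos per 10000 UMIs than neurons: 62.0, 75.1 and 16.4 in glia, 39.4, 37.4 and 28.8 in fibroblasts, 47.8, 53.9 and 38.7 in mural cells and 15.6, 15.5 and 15.2 in macrophages. The level in macrophages was even across libraries, and that in glia was not. With all cells thinned to 1000 UMIs, a Fos UMI was seen in 87.3%, 87.1% and 40.7% of glia and in 24.2%, 17.2% and 5.28% of neurons. No class without Fos was at hand to give a background share. Instead, the level in neurons was set against that in glia: it came to 5.01%, 2.73% and 3.18% of the glial level for Fos, against 1.34%, 1.78% and 1.96% for the summed glia markers. Among the 20 members with at least 20 UMIs in the glia of every library, Atf3, Egr1, Nr4a1, Zfp36 and Socs3 did not exceed the glia markers in all 3 libraries. This percentage was not taken over all genes, and the glia markers do not gauge RNA of the other classes. It is thus no background share.

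Each class was compared with neurons on UMI counts summed per library, with the library as a block (edgeR's quasi-likelihood test, Benjamini-Hochberg adjustment over 8684 genes, 3 libraries). In glia 27 of the 32 members tested were higher than in neurons and 3 were lower, against 29.4% of all genes higher and 35.3% lower. In fibroblasts 29 were higher and 2 lower (all genes, 30.6% and 35.2%), in mural cells 29 and 1 (25.4% and 31.5%) and in macrophages 26 and 0 (22.6% and 35%). Arc and Npas4 were too low in these sums to be tested. Over the tested members the median log2 fold change was 4.13, 4.24, 4.14 and 4.26 in glia, fibroblasts, mural cells and macrophages, against -0.22, -0.13, -0.19 and -0.49 over all genes. DESeq2 size factors moved these medians of all genes to -0.01, 0.02, -0.08 and -0.33, with which Jund was called higher in glia and macrophages and Hsph1 was not called in glia or fibroblasts. Setting the marker-clean neurons in place of all neurons left 30 of 30 calls in glia, 31 of 31 in fibroblasts, 30 of 30 in mural cells and 26 of 26 in macrophages. Leaving out a library also added calls: Arc, Jund and Myc in glia and Hspb1, Hsph1 and Jund in macrophages without the mixed library, Hsph1 in mural cells without the mixed library, and Myc in glia, Hspb1 in fibroblasts, Egr2 in mural cells and Gadd45g and Myc in macrophages without the posterior library.

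**Figure D2:**
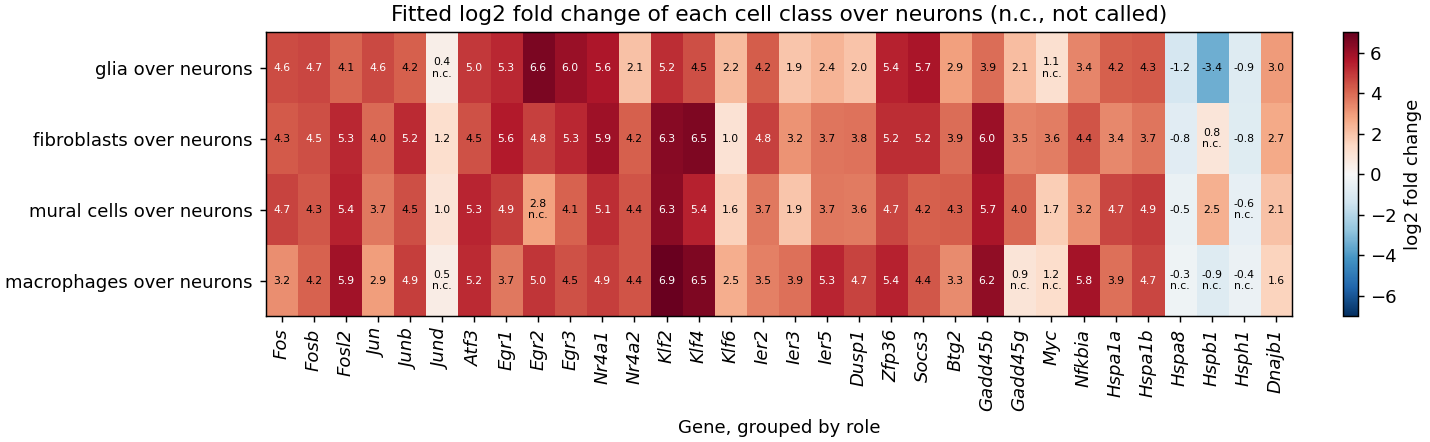
Fitted log2 fold change of each cell class over neurons for the 32 tested genes (colour and printed value; n.c., not called at an adjusted p of 0.05), from counts summed per library and class in 3 libraries. Most cells lie between 2 and 7, and the palest or blue columns are Jund, Hspa8, Hspb1 and Hsph1.

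In glia, 6 of 7 AP-1 genes were higher, and so were all 3 EGR, both NR4A and all 3 KLF genes and 10 of 11 feedback genes. The largest fold was that of Egr2, at 2.34, 2.23 and 0.256 UMIs per 10000 in glia, against 0.0211, 0.0220 and 0.00258 in neurons (log2 fold change 6.59 ± 0.58 SE, edgeR adjusted p = 1.00e-07). Every glial library was above every neuronal one. Egr3 (log2 6.05), Socs3 (5.73), Nr4a1 (5.65), Zfp36 (5.39) and Egr1 (5.28) came next, with Egr1 at 23.9, 26.2 and 6.50 in glia. Fos was higher by 4.56 ± 0.44 (adjusted p = 2.41e-07), Jun, at 49.1, 54.1 and 14.9, by 4.6 ± 0.41 (1.17e-07) and Atf3, at 13.8, 22.9 and 2.50, by 4.97 ± 0.63 (4.84e-06). Klf6, Ier3, Dusp1 and Gadd45g had smaller differences, of 2.22, 1.94, 1.98 and 2.14. Jund (0.42 ± 0.26, adjusted p = 0.179) and Myc (1.10 ± 0.58, adjusted p = 0.109) did not pass, and the call of Nr4a2 (2.06 ± 0.51) was lost without the anterior library.

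The chaperones that neurons carried most were lower in glia. Hspb1 had 0.582, 0.450 and 0.160 UMIs per 10000 in glia, against 4.53, 3.84 and 3.41 in neurons (-3.42 ± 0.81, edgeR adjusted p = 0.00165). Hspa8 had 12, 10.1 and 9.71 in glia, against 21.2, 19.8 and 20.5 (-1.20 ± 0.15, adjusted p = 3.43e-06). In both genes no glial library reached the lowest neuronal one. Hsph1 was lower by a fitted -0.90 ± 0.32 (adjusted p = 0.0232), but its mixed glia (0.833) lay above its mixed neurons (0.717), and the call was lost without the anterior or the posterior library. Hspa1a, Hspa1b and Dnajb1 were higher in glia, by 4.17, 4.31 and 2.99.

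Fibroblasts and mural cells differed from glia in a few members. In fibroblasts all 7 AP-1 genes and all 11 feedback genes were higher than in neurons, led by Klf4 (log2 6.51 ± 0.51), Klf2 (6.35 ± 0.82), Gadd45b (5.97), Nr4a1 (5.95), Egr1 (5.56) and Fosl2 (5.28), with edgeR adjusted p between 7.50e-11 and 5.10e-06. Klf4 stood at 7.74, 4.67 and 3.88 UMIs per 10000 in fibroblasts, against 0.124, 0.0490 and 0.0150 in neurons, and did not overlap. Myc was higher in fibroblasts (3.56 ± 0.41), with 0.783, 0.960 and 1.08. Hspb1 did not pass in fibroblasts (log2 0.85 ± 0.69, adjusted p = 0.295), although its levels of 4.99, 6.20 and 18.1 all lay above those of neurons. In mural cells Hspb1, which smooth muscle is known to carry, was higher than in neurons in every library (26.3, 22.3 and 28.4, log2 2.49 ± 0.71, adjusted p = 0.00720). Also in mural cells, Klf2 (6.31), Gadd45b (5.70), Klf4 (5.40), Fosl2 (5.36), Atf3 (5.33) and Nr4a1 (5.15) had the largest folds. Hspa8 was lower in fibroblasts (-0.77 ± 0.15, adjusted p = 0.000252) and in mural cells (-0.48 ± 0.15, adjusted p = 0.0112), and Hsph1 was lower in fibroblasts (-0.83 ± 0.32, adjusted p = 0.0298). The call of Hspa8 in mural cells was lost without any 1 of the 3 libraries, and that of Hsph1 in fibroblasts without the anterior or the posterior library. Myc was called higher in mural cells (1.71 ± 0.65) through the posterior library alone (0.695, against 0.0750 and 0.0733 in the other two), and its fitted value was -0.067 without it. The 2 mural members that did not pass were Egr2 (2.80 ± 1.38) and Hsph1 (-0.58 ± 0.35).

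Macrophages had the lowest Fos of the 4 classes and the highest Dusp1 and Nfkbia. Dusp1 stood at 11.7, 12.8 and 11.8 UMIs per 10000 in macrophages, against 0.662, 0.363 and 0.347 in neurons (log2 4.72 ± 0.35, edgeR adjusted p = 3.35e-08). Nfkbia, with 11.6, 17.4 and 12.9 in macrophages, was higher by 5.83 ± 0.32 (1.70e-09), and Ier5, with 3.4, 3.18 and 3.69, by 5.34 ± 0.27 (1.17e-09). Klf2 (6.92), Klf4 (6.54), Gadd45b (6.21) and Fosl2 (5.90) had the largest folds in this class together with Nfkbia and Zfp36 (5.36). Jund, Gadd45g, Myc, Hspa8, Hspb1 and Hsph1 did not pass, and the call of Dnajb1 (1.57 ± 0.51) was lost without the mixed library. The anterior macrophage sum rests on 15 cells, and the comparison between non-neuronal classes was not tested.

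Fos and the HSP70 genes Hspa1a and Hspa1b took opposite orders across libraries in glia. Fos was lower in mixed glia (16.4 UMIs per 10000) than in posterior (62.0) and anterior glia (75.1), and Jun, Egr1, Socs3 and Atf3 had the same order of mixed below both others. Hspa1a was higher in mixed glia (15.8) than in posterior (4.46) and anterior glia (2.29), and Hspa1b stood at 5.73, against 2.10 and 0.360. Dnajb1 did not follow them, with 1.86 in mixed glia, against 4.56 in posterior and 4.21 in anterior glia. In fibroblasts Hspa1a was at 15.1 in the mixed library, against 0.657 and 1.32 in the posterior and anterior libraries. In macrophages it was at 19.8, against 1.45 and 1.18, and in mural cells at 11.9, against 7 and 3.98. The counting intervals of Hspa1a in the mixed library lay above those of both other libraries in all 5 classes. Neurons stood at 0.364 in the mixed library, against 0.313 and 0.101. In marker-clean neurons Hspa1a stood at 0.296 in the mixed library, against 0.284 and 0.0737. There the mixed and posterior intervals overlapped (0.284 to 0.307 and 0.271 to 0.297). There is 1 library of each kind, so these orders have no test, and library, region, labelled age and processing version cannot be told apart.

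**Figure D3:**
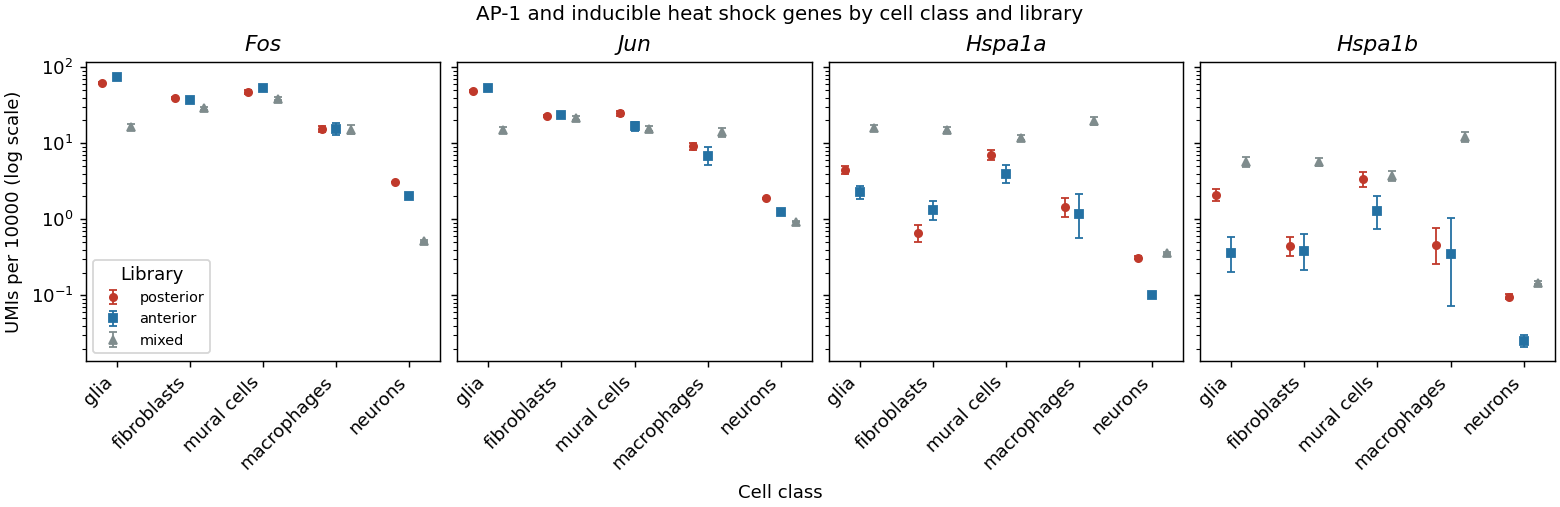
Level of Fos, Jun, Hspa1a and Hspa1b (y axis, UMIs per 10000, log scale) in glia, fibroblasts, mural cells, macrophages and neurons of each library, with exact Poisson 95% intervals that cover counting error only. Fos and Jun are lowest in neurons in every library, and the mixed library (grey) has the highest Hspa1a in each class.

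The sequences upstream of Hspa1a and Hspa1b are shown because this pair moved apart from the other members between libraries. That of Hspb1 is set beside them. Hspa1a (chr17:34969190-34972156, minus strand) and Hspa1b (chr17:34956436-34959238, minus strand) lie side by side on GRCm38, and their last 500 bases share no stretch of 50 bases, so reads from the 3′ ends tell them apart. The 200 bases before the start site are given from RefSeq (GRCm38.p6), 5′ to 3′ on the strand of the gene. Capitals mark a heat shock element core, GAANNTTC, searched together with TTCNNGAA on both strands.
Hspa1a (chr17:34972157-34972356, minus strand): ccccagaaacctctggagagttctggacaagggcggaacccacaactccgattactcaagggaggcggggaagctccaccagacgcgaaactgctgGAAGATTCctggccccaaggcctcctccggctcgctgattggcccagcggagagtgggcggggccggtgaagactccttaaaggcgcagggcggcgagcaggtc
Hspa1b (chr17:34959239-34959438, minus strand): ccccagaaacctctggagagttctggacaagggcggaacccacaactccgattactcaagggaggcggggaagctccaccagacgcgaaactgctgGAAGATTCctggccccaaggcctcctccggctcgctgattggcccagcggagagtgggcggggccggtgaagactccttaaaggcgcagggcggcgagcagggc
Hspb1 (chr5:135887719-135887918, plus strand): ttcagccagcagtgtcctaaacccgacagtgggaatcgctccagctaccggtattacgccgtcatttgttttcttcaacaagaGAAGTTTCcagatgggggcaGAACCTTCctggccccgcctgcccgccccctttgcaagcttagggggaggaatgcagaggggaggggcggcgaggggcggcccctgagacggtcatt
The first 2 windows were identical at 199 of 200 bases, and both hold the core at -104. Hspb1, whose gene lies at chr5:135887919-135889563 on the plus strand, holds 2 cores, at -117 and -97. A promoter was matched for 28 of the 34 members, and not for Egr1, Egr3, Ier2, Myc, Hspa8 and Arc. Of the 28, 5 hold such a core (also Hsph1 at -33 and Jun at -128), against 10.4% of 27025 mouse promoter windows of that length. The window of the heat shock member Dnajb1 holds none. The EGR core GCGNGGGCG was found in 10 of the 28 (Btg2, Fosb, Fosl2, Gadd45b, Klf2, Klf4, Nr4a1, Nr4a2, Socs3 and Zfp36), against 4.25% of all windows. The AP-1 core TGANTCA was in 0 of the 28, against 5.55%, and the serum response CArG box was in Zfp36, against 1.14%. Bases beyond the 200 were not searched, so a missing match says nothing of sites further upstream. A match is a description of these letters and not evidence of binding.

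Npy and Ddah1 mark the main neuron classes of these ganglia. Neurons with at least 1 Ddah1 UMI and under 4 Npy UMIs per 10000 numbered 436, 104 and 332, and neurons with at least 4 Npy and under 1 Ddah1 numbered 812, 1128 and 1538. A further 195, 82 and 101 neurons were in neither class. The posterior ones had 12.7 lymphocyte, 5.88 fibroblast and 3.61 macrophage marker UMIs per 10000, against 0.0322, 1.35 and 0.178 in posterior Npy neurons. The anterior ones had 0.00576, 1.94 and 0.207. All count in the levels and region ratios of neurons, and their part there was not tested. Ddah1, whose product breaks down methylated arginines that inhibit nitric oxide synthase, averaged 3.19, 3.16 and 4.68 UMIs per 10000 in the Ddah1 neurons and 0.194, 0.143 and 0.123 in the Npy neurons. The comparison asked whether the classes differ in the 34 genes within each library (edgeR's quasi-likelihood test with the library as a block, Benjamini-Hochberg adjustment over 13710 genes). Of the 34 genes, 14 were higher in Ddah1 neurons and 4 were lower, against 15.6% of all genes higher and 16% lower. The median log2 fold change was 0.23 over the members and 0.00 over all genes.

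Gadd45b, a sensor of growth arrest and DNA damage that also takes part in DNA demethylation in neurons, had the largest difference. It stood at 0.129, 0.169 and 0.1255 UMIs per 10000 in Ddah1 neurons, against 0.0410, 0.0452 and 0.0337 in Npy neurons (log2 fold change 1.79 ± 0.11 SE, edgeR adjusted p = 1.64e-12), and the classes did not overlap. Hspb1, the most abundant of the genes that differed, had 6.65, 7.44 and 5.75 in Ddah1 neurons, against 3.17, 3.38 and 2.84 in Npy neurons (1.06 ± 0.05, adjusted p = 7.94e-14). All 3 Ddah1 values exceeded all 3 Npy values here too, with a ratio of 2.10, 2.20 and 2.02. Dusp1 had 0.815, 0.608 and 0.681 in Ddah1 neurons, against 0.495, 0.331 and 0.272 in Npy neurons (0.97 ± 0.08, adjusted p = 6.87e-10). Nr4a2, a nuclear receptor of dopamine neurons, had 0.0598, 0.0523 and 0.0576, against 0.0333, 0.0224 and 0.0193 (1.19 ± 0.16, adjusted p = 2.11e-06). These 4 genes were called in the same direction under all 14 alternative settings run.

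The sequence before Dusp1 is shown as that of a feedback gene held under all settings. Dusp1 (chr17:26505590-26562128, minus strand, GRCm38) has a full cAMP response element, TGACGTCA, at -143 within the window shown next, with the element in capitals (RefSeq, GRCm38.p6). The position counts from the RefSeq start site, and the window lies inside the gene span given and not at its end. Btg2, at -166, was the other member with the element, against 1.55% of all windows.
Dusp1 (chr17:26508473-26508672, minus strand): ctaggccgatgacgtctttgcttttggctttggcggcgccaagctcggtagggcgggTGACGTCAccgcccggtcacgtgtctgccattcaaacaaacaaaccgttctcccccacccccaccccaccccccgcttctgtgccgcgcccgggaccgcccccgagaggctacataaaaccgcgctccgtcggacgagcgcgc
The element is the binding motif of CREB family factors, and its presence says nothing of whether one binds there.

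The other feedback genes that were higher in Ddah1 neurons were Socs3 (log2 0.85 ± 0.08, edgeR adjusted p = 7.33e-09), Zfp36 (0.52 ± 0.09, 6.90e-05), Btg2 (0.34 ± 0.07, 0.000282), Gadd45g (0.33 ± 0.08, 0.00261) and Nfkbia (0.24 ± 0.07, 0.0129). Socs3 stood at 0.477, 0.428 and 0.0602 in Ddah1 neurons, against 0.251, 0.273 and 0.0306 in Npy neurons. Both classes thus had their lowest Socs3 in the mixed library, where the ratio was 1.97. Among transcription factors, Klf2 (0.78 ± 0.10, 1.48e-06), Egr2 (0.76 ± 0.27, 0.0368), Atf3 (0.48 ± 0.10, 0.000407), Junb (0.26 ± 0.06, 0.00220) and Fos (0.17 ± 0.06, 0.0262) were higher. The ratio for Atf3 was 1.67 and 1.44 in the posterior and anterior libraries and 0.980 in the mixed library, and the call was lost without the posterior library. Fos had 3.02, 2.52 and 0.577 in Ddah1 neurons, against 2.90, 1.98 and 0.514 in Npy neurons, a difference far smaller than that between libraries. Fos and Egr2 were not called in marker-clean neurons. Fos, Egr2 and Gadd45g were not called without the anterior library, and Egr2 and Nfkbia were not called without the posterior library.

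The 4 lower genes were Fosl2 (-1.46 ± 0.25, edgeR adjusted p = 5.88e-05), Myc (-0.53 ± 0.12, 0.00122), Klf6 (-0.50 ± 0.07, 2.75e-06) and Klf4 (-0.48 ± 0.16, 0.0251). Klf6, known in zebrafish for its part in optic axon regrowth, had 1.11, 0.906 and 0.689 UMIs per 10000 in Ddah1 neurons, against 1.49, 1.11 and 1.12 in Npy neurons, so it was lower in each library while the ranges touched. Myc, at 0.0562, 0.0594 and 0.0459 against 0.0737, 0.0792 and 0.0744, did not overlap. Fosl2 rests on few UMIs (0.0123, 0.0143 and 0.00408 against 0.0375, 0.0244 and 0.0117). The call of Klf4 was lost in marker-clean neurons and without the mixed library, and that of Myc without the mixed library. Of the 6 heat shock members, Hspb1 was the 1 that passed. Hspa1a had 0.471, 0.0927 and 0.267 in Ddah1 neurons, against 0.221, 0.10 and 0.387 in Npy neurons, and so did not keep 1 direction over the libraries (0.23 ± 0.18, adjusted p = 0.376). Without the mixed library Hspa1a, Hspa1b, Dnajb1, Hspa8, Jun and Jund were also called, and without the posterior library Fosb and Hspa1a were.

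Without the library block 4 members were called in place of 18, and DESeq2 called 13. With neurons thinned to 10000 UMIs 12 were called, 11 of them among the 18, and Fos, Fosl2, Gadd45g, Junb, Myc, Nfkbia and Zfp36 were lost. Glia markers summed to 2.86, 2.65 and 4.82 UMIs per 10000 in Ddah1 neurons and to 1.99, 2.44 and 4.42 in Npy neurons, a small step in the same direction. Macrophage markers summed to 0.421, 0.290 and 0.300 in Ddah1 neurons, against 0.178, 0.173 and 0.187 in Npy neurons. Over all neurons the highest of the 10 macrophage markers gave 0.210, 0.178 and 0.199 of a sum of 0.689, 0.184 and 0.209. In the anterior and mixed libraries this sum thus rests almost wholly on 1 marker. The median mitochondrial share was 2.99%, 2.68% and 4.8% in Ddah1 neurons, against 2.55%, 2.43% and 3.94% in Npy neurons. The part of these in the members' differences was not tested. With marker-clean neurons 20 members were called, 15 of them among the 18.

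**Figure D4:**
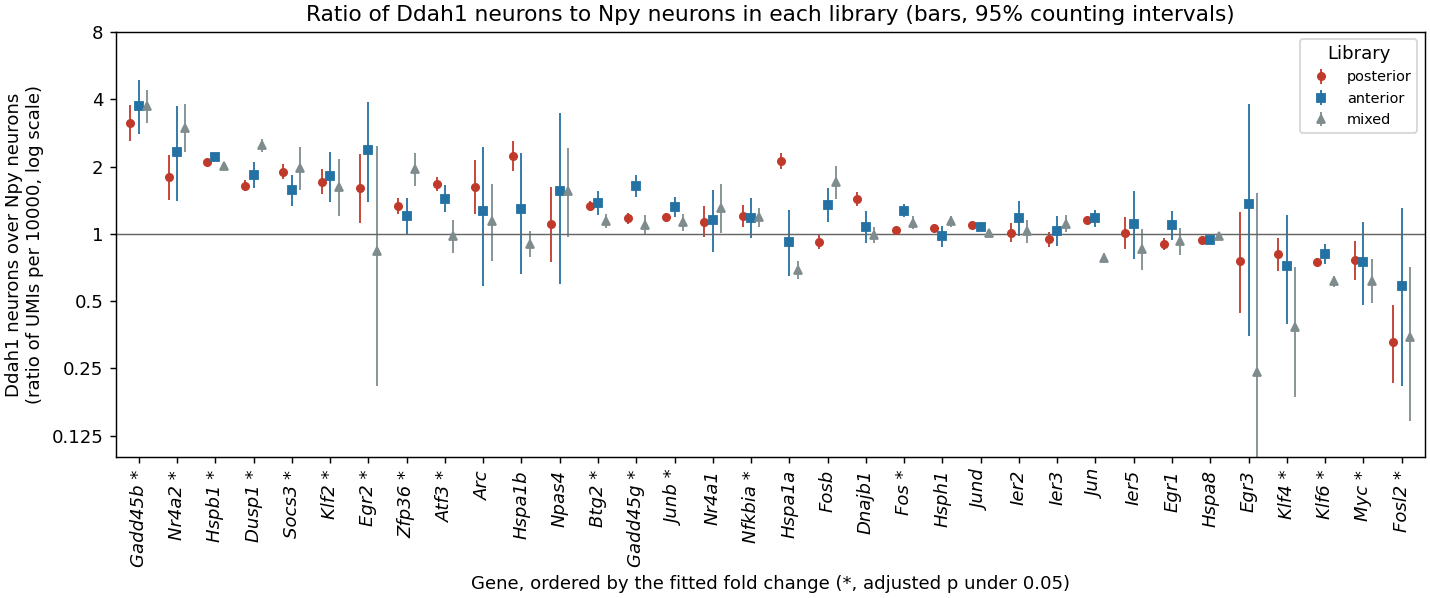
Ratio of the level in Ddah1 neurons to that in Npy neurons for each of the 34 genes (y axis, log scale), 1 point per library with its 95% counting interval. Asterisks mark an edgeR adjusted p under 0.05. Gadd45b, Nr4a2, Hspb1 and Dusp1 are above 1 in all 3 libraries, Hspa1a is above 1 in the posterior library (2.13) and below it in the mixed library (0.689), and the interval of Egr3 in the mixed library runs below the axis.

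Posterior and anterior neurons were set side by side as 2 libraries, with no test. Of 25 members with 0.1 or more UMIs per 10000 in the higher library, 2 were past 2-fold, both higher in posterior neurons, against 0.601% of 8313 genes. These were Hspa1a, with a ratio of 3.09 (95% counting interval 2.82 to 3.41), and Klf4, with 2.54 (2.21 to 2.92). Hspa1b, at a ratio of 3.85, fell just under the level limit. The other members leaned the same way: 22 of 25 had a log2 ratio above 0, against 64.9% of all genes, and the median log2 ratio was 0.49, against 0.08. Fosb had a ratio of 1.99 (1.87 to 2.11), just inside 2-fold, followed by Dusp1 (1.82), Btg2 (1.68), Egr1 (1.65), Klf2 (1.62), Fos (1.51) and Jun (1.51). Jund (0.909), Ier3 (0.930) and Ier2 (0.970) were the 3 on the other side. Ratios are printed without a pseudocount, while the counts past 2-fold and the log2 medians carry one of 0.01 UMIs per 10000. With TMM factors, which moved the median of all genes to -0.03, 20 of 25 were above 0 and the median was 0.39.

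The median log2 ratio of the members was larger in marker-clean neurons and smaller within each neuron class. Of 21 marker-clean members at that level, 17 were above 0, against 65.5% of genes. Their median log2 ratio was 0.69, against 0.09 over all genes. Past 2-fold were 6 of the 21, against 0.414% of genes higher and 0.0122% lower. They were Hspa1a (3.85), Atf3 (3.18), Socs3 (2.81), Egr1 (2.68), Zfp36 (2.68) and Fosb (2.36). In Npy neurons 1 of 23 members was past 2-fold (0.0726% of genes). The median of the 23 was 0.34, against 0.09 over all genes, and 16 were above 0, against 65.4% of genes. In Ddah1 neurons 2 of 25 were past 2-fold (0.157% of genes higher, 0.145% lower), Hspa1a (5.08) and Hspa1b (4.69). The median of the 25 was 0.24, against 0.07, and 17 were above 0, against 61.0% of genes. Within each class the count above 0 was thus near the share of all genes. Posterior neurons held 436 Ddah1 neurons of 1443, against 104 of 1314 in anterior neurons. Without the 5% of neurons with the highest summed level, 1 of 22 was past 2-fold, against 0.447% of genes higher and 0 lower, and the median was 0.56, against 0.08 over all genes. With every neuron thinned to 10000 UMIs, which gives each cell the same weight, 7 of 27 were past 2-fold, all higher in posterior neurons, against 1.52% of genes higher and 0.0116% lower, and the median was 0.69.

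Glia and fibroblasts of the same libraries did not lean this way. In glia the median log2 ratio of 33 members was -0.14, and 1 was past 2-fold higher in posterior glia and 2 lower, against 5.57% and 5.71% of genes. In fibroblasts the median was -0.21 over 32 members, and 1 was past 2-fold lower and 0 higher, against 6.7% and 8.15% of genes. In mural cells the median was 0.02 over 31 members, with 3 past 2-fold higher and 2 lower, against 18.4% and 16.4%. In macrophages the median was 0.06 over 32 members, with 1 past 2-fold higher and 1 lower, against 21.4% and 18.4%. Fos, for one, had a ratio of 0.826 in glia and 1.05 in fibroblasts, against 1.51 in neurons. The difference between cell classes was not tested, as each ratio rests on 1 library a side.

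**Figure D5:**
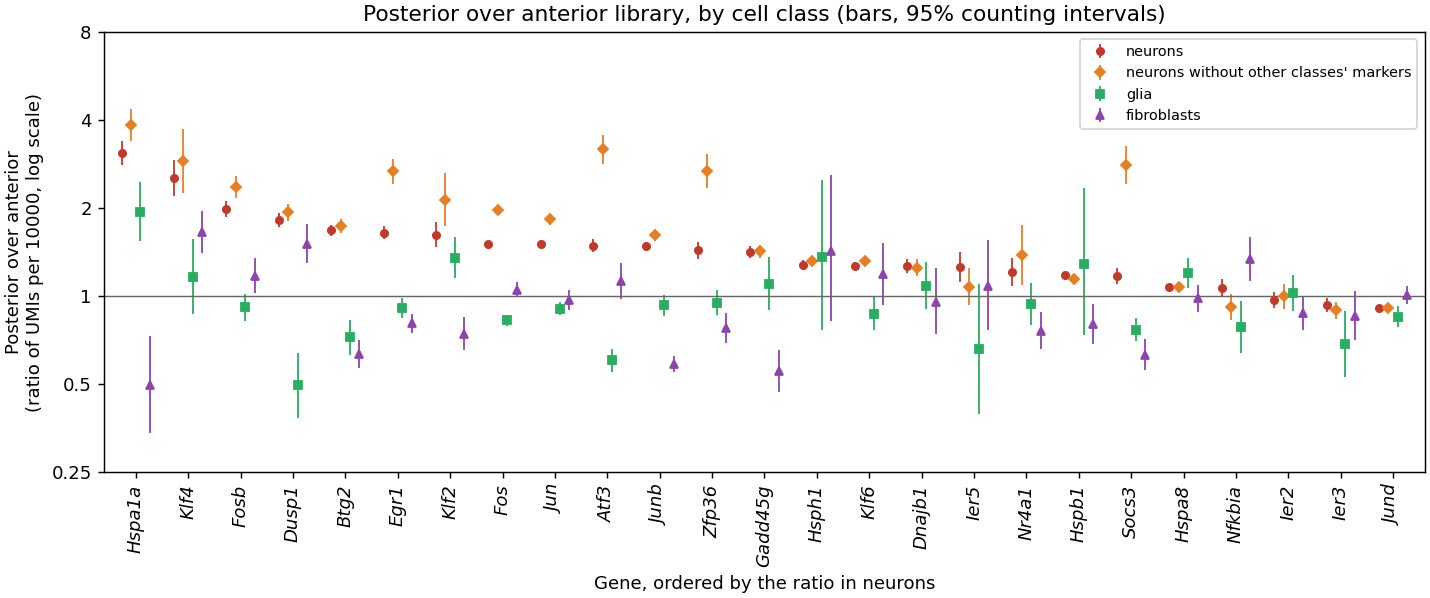
Ratio of the posterior to the anterior library (y axis, log scale) for the 25 genes with 0.1 or more UMIs per 10000 in neurons, in neurons, marker-clean neurons, glia and fibroblasts, with 95% counting intervals. Most neuronal points lie above 1, up to 3.09 for Hspa1a, while most glial and fibroblast points lie at or below 1.

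Other genes of the same pathways were listed beside the members and read in the same fits. Their counts between the neuron classes stand against 15.6% of all genes higher and 16% lower. Of 29 further immediate early genes tested between the neuron classes, 13 were higher in Ddah1 neurons and 6 lower, with Sgk1, a serum and glucocorticoid induced kinase, at 0.587, 0.404 and 0.456 UMIs per 10000 against 0.156, 0.117 and 0.116 (log2 1.89 ± 0.07, edgeR adjusted p = 1.88e-16). Dusp2 was also higher (1.22), and Klf5 (-1.85) and Dusp4 (-2.41) were lower. Of 18 further chaperone genes 5 were higher and 2 lower, within a narrow range, Hspb8 (0.37) and Dnaja1 (0.36) at the top and Hsp90aa1 (-0.15) and Bag3 (-0.21) at the bottom. Of 18 upstream regulators 3 were higher, near the share of all genes, and 1 was lower. Crem, a factor of the CREB family, stood at 0.593, 0.616 and 0.655 UMIs per 10000 against 0.316, 0.312 and 0.314 (0.97 ± 0.06, adjusted p = 7.63e-12), Stat3 (0.45) was also higher, and Rela (-0.16) and Nfkb1 (-0.27), the lowest of the list, did not pass. Of 13 axon injury genes 5 were higher and 3 lower. The neuropeptide gene Gal stood at 0.684, 0.618 and 1.01 UMIs per 10000 against 0.0712, 0.0597 and 0.0572 (3.64 ± 0.11, adjusted p = 6.46e-18). Tubb6 (2.02) was higher too, and Stmn4 (-0.67) and Flrt3 (-1.57) were lower.

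The same lists were read against neurons, where the shares of all genes higher and lower were 29.4% and 35.3% in glia, 30.6% and 35.2% in fibroblasts, 25.4% and 31.5% in mural cells and 22.6% and 35% in macrophages. In glia 16 of 27 further immediate early genes were higher and 1 lower, in fibroblasts 23 and 1, in mural cells 22 and 2 and in macrophages 22 and 1. Ccn1 (log2 6.74) and Cebpd (5.69) led in glia, Bdnf (7.62) and Cebpd (6.36) in fibroblasts, Bdnf (7.86) and Ccn2 (7.40) in mural cells, and Tnfaip3 (8.03) and Nfkbiz (7.35) in macrophages. Bdnf rests on at most 0.440 UMIs per 10000 in any class and had 0 UMIs in glia and macrophages. Dusp2 in fibroblasts (-0.60) did not pass, and Plk2 was lower in mural cells (-1.48). Vgf, a neuronal secreted protein gene, was lower in each class and at 0 UMIs in macrophages, with 0.0612, 0.0225 and 0 UMIs per 10000 in glia against 0.818, 0.829 and 0.438 in neurons (-4.65 ± 0.46, edgeR adjusted p = 8.95e-07). Of the 18 further chaperone genes 12 were lower in glia, 13 in fibroblasts, 12 in mural cells and 12 in macrophages, while 2, 3, 3 and 1 were higher. Hsp90ab1, the constitutive HSP90, had 13.6, 10.8 and 13.8 UMIs per 10000 in glia against 36.0, 38.2 and 43.6 in neurons (-1.88 ± 0.15, adjusted p = 2.64e-08), and Hspb8 was lower by -3.76. The exceptions included Cryab, a small heat shock protein, which was higher in glia (3.61), fibroblasts (2.27) and mural cells (3.03) and lower in macrophages (-3.79), and Hspa5, the chaperone of the endoplasmic reticulum, which was higher in glia (1.37), fibroblasts (2.20) and macrophages (1.77). Dnajb4 was higher in mural cells (1.78), Hspa4l was lower in fibroblasts (-2.21) and Cacybp in mural cells (-1.67), and Ahsa1 did not pass in macrophages (0.18). Hspb8 was lower in fibroblasts (-2.02), mural cells (-1.63) and macrophages (-3.32) as well.

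The same shares of all genes apply to the remaining lists. Of 15 upstream regulators tested 6 were higher and 4 lower in glia and in fibroblasts, and 6 were higher and 3 lower in mural cells and in macrophages. Nfkb1, a subunit of NF-kB, was higher in glia (log2 3.13), fibroblasts (3.24), mural cells (2.41) and macrophages (4.13), and Rela, its partner, was higher in glia (2.84) and macrophages (2.47). Elk4 (2.26) was the other leading gene in fibroblasts and Atf1 (2.09) in mural cells. Mapk3, which encodes the kinase ERK1, was lower in glia (-1.67), fibroblasts (-2.44), mural cells (-2.75) and macrophages (-2.23). Hsf2 was lower in macrophages (-2.30). Of 10 axon injury genes tested 5, 6, 5 and 3 were higher and 2, 2, 3 and 2 lower in glia, fibroblasts, mural cells and macrophages. Itga7 (6.83) and Sema6a (6.71) led in glia, Anxa1 (8.59) and Tubb6 (5.26) in fibroblasts, Anxa1 (7.76) and Itga7 (6.04) in mural cells and Anxa1 (7.02) and Cdkn1a (5.83) in macrophages. Gap43, a growth cone protein gene, was lower in glia (-3.90), fibroblasts (-5.22) and macrophages (-5.22), and Stmn4 was lower in glia (-3.78), fibroblasts (-3.84), mural cells (-4.87) and macrophages (-3.51). Flrt3 had 0 UMIs in mural cells and did not pass. Between posterior and anterior neurons, 1 of 12 further immediate early genes at the level limit was past 2-fold (Sgk1, 2.15), 0 of 18 chaperones, 0 of 13 upstream regulators and 1 of 8 axon injury genes (Gal, 2.81).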

How the data were processed

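Single-cell 3′ RNA libraries of 3 kinds (posterior, anterior and mixed cardiac ganglia, 1 each) were read as the UMI counts per gene and barcode that the authors deposited. Per the file headers these matrices were written by Cell Ranger 6.1.2 (posterior, anterior) and 3.1.0 (mixed), while the submitters' processing notes name Cell Ranger 7.1.0, Seurat 4.4.2 and the build mm10. Genes were joined on Ensembl ID (30406 shared features), which held 99.5% of posterior and anterior and 99.9% of mixed neuron UMIs.

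Barcodes were kept with at least 1000 UMIs, 500 genes and at most 20% mitochondrial UMIs, leaving 2624, 2029 and 2438. Total UMIs over neurons were 80516392 (posterior), 51878802 (anterior) and 116096099 (mixed). Glia, fibroblasts, mural cells and macrophages needed at least 3 markers and 10 marker UMIs per 10000, the highest of the non-neuronal marker sums, a sum above that of the neuron markers, and not all 3 neuron markers. This gate was settled after the data had been seen. No doublet caller was run, and no deposited cell annotation was used. Ddah1 neurons had at least 1 Ddah1 and under 4 Npy UMIs per 10000, and Npy neurons the reverse.

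UMIs were summed per library and class (at least 10 cells) and tested with edgeR 4.0.16 in R 4.3.3 (filterByExpr, TMM, quasi-likelihood test, library as a block, Benjamini-Hochberg adjustment over all genes tested, limit 0.05). Same-library sums come from the same library, which is what pairs them. As there are only 3 libraries, p-values measure the spread between these. Region ratios are printed as they stand, and their 2-fold counts and log2 medians used a pseudocount of 0.01 UMIs per 10000 and 0.1 or more UMIs per 10000 in the higher library. Intervals are exact Poisson at 95% and, like the limit of 3 UMIs, cover counting error only. Correlations used neurons thinned to 10000 UMIs. DESeq2 1.42.0, other gates, limits and scalings, and leaving out each library were alternatives. The code was tested on simulated data. Python 3.11.15, numpy 2.4.6, scipy 1.17.1, pandas 2.3.3 and matplotlib 3.10.9 were used.

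The members and gene lists were chosen with earlier results of these data known. All 34 members are named with their neuron levels. In each fit the called members are named by role, up to 6 at each end with values, and of each related list the 2 highest and 2 lowest. For correlation the 8 most alike genes are named, except that some genes these rules select are not reported here. Members outside these that are singled out were chosen after their values were seen.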

Additional observations from a re-analysis of the deposited data

Results flagged for a closer look

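Several members had a posterior over anterior ratio above 1 in neurons and below 1 in another cell class of the same libraries. In glia these were Fos (0.826), Jun (0.906), Atf3 (0.604), Egr1 (0.91), Klf6 (0.871), Dusp1 (0.495), Socs3 (0.767) and Btg2 (0.724). In fibroblasts they were Junb (0.585), Egr1 (0.806), Nr4a1 (0.762), Klf2 (0.745), Zfp36 (0.779), Socs3 (0.631), Btg2 (0.634), Gadd45g (0.555), Hspa1a (0.496) and Hspb1 (0.804). Each interval lay on its own side of 1, but with 1 library a region the difference was not tested.

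The ratio of Ddah1 to Npy neurons lay above 1 in at least 1 library and below 1 in another, each with its 95% counting interval on that side, for 3 members. Fosb had 0.921 in the posterior, 1.35 in the anterior and 1.7 in the mixed library. Jun had 1.16, 1.17 and 0.78 in the same order, and Hspa1a had 2.13 in posterior and 0.689 in mixed ganglia. The difference was not tested.

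Barcodes with neuron markers but under 10000 UMIs, left out of all comparisons, held Fos at 21.5 UMIs per 10000 in 517 posterior barcodes, 5.72 in 279 anterior and 1.09 in 73 mixed ones, against 3.11, 2.05 and 0.522 in neurons. Fibroblast markers there summed to 52.4, 12 and 15.2 UMIs per 10000, and their part in the Fos level was not tested.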

How the results depend on the processing

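The number of members called between Ddah1 and Npy neurons (18) ran between 15 and 22 when a library was left out, and was 4 without the library block that pairs the sums of a library; the block changed no count over neurons by more than 1 member. Leaving out a library gave 28 to 33 calls in glia (30), 30 to 31 in fibroblasts (31), 29 to 30 in mural cells (30) and 26 to 28 in macrophages (26). Direction turned for Hspa1a between neuron classes without the posterior library (-0.48, against 0.88 without the mixed library and 0.23 over all 3, where it was not called), for Klf4 with the Npy limit alone (0.58, against -0.48) and for Myc in mural cells without the posterior library (-0.067, against 2.63 without the mixed library and 1.71 over all 3). The 2 members past 2-fold between regions became 1 with a pseudocount of 0.1, 1 in Npy neurons, 1 in neurons above a higher depth limit, 1 without the top 5% of neurons, 6 in marker-clean neurons, 7 in thinned neurons and 7 with the mean of per-cell levels, while the median log2 ratio stayed between 0.242 and 0.690. The median correlation was 0.260 (posterior, main 0.109), 0.217 (anterior, 0.103) and 0.122 (mixed, 0.053) with Pearson's r of log2 values, 0.041 and 0.034 in posterior and anterior marker-clean neurons, 0.066 in posterior Npy neurons, and 0.134 (anterior) and 0.084 (mixed) unthinned. The causes were not tested. Class depths of 2147 to 7205 UMIs per cell limit the scarce members, and Arc and Npas4 fell under the low-count filter there.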
